A study of Mus musculus with 12 samples.

Results

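The genes described are the E2F transcription factors and the pocket proteins that bind them, 10 of the 17097 genes measured in CT26 cells. They are the activating factors E2f1, E2f2 and E2f3, the canonical repressing factors E2f4 and E2f5, the atypical repressing factors E2f7 and E2f8, and the pocket proteins Rb1, Rbl1 (p107) and Rbl2 (p130). Each was represented by the probe set that carries its symbol alone and had the highest mean over the 12 arrays. CT26 is a mouse colon carcinoma line, and the 4 groups of 3 arrays each were taken from the sample titles. Control (CTR) medium held glucose at 1 g/L and serum at 10%. Short-term starvation (STS) lowered these to 0.5 g/L and 1% for 48 hours, so the effects of glucose and of serum cannot be told apart. Oxaliplatin (OXP), a platinum drug that crosslinks DNA, was listed as added 24 hours into the 48-hour incubation, in control medium or during STS (STS+OXP). A legend of the study instead has 48 hours of medium followed by 24 hours of OXP, so the timing is uncertain. The labels give 10 µM OXP, which lies within the range in the study's methods but below the concentrations in its legends, so the dose on these arrays is uncertain. Whether replicate arrays are separate cultures is not stated, so the p-values measure the spread between arrays, which may be technical.

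E2F factors bind promoters of genes needed for DNA synthesis and cell division. E2f1, E2f2 and E2f3 activate them in late G1, when cyclin D and cyclin E kinases phosphorylate the pocket proteins and release the factors. E2f4 and E2f5 bind mostly p107 or p130 and hold the same promoters silent in resting cells, where p130 is part of the DREAM complex with the MuvB proteins. E2f7 and E2f8 bind DNA without a DP partner and without a pocket protein, and are themselves E2F targets that switch off the G1/S genes late in S phase. Rb1 encodes the retinoblastoma protein, which holds the activating factors, whereas p107 is made mainly in cycling cells and p130 mainly in resting cells.

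Because several of these genes are themselves reported targets of E2F, the sequences around their start sites are shown. RefSeq promoter windows (GRCm38.p6, 250 bases before to 50 after a start site) were matched for 7 of the 10 members by symbol, in 9 windows, and E2f4 (chr8:105297663-105305370), E2f5 (chr3:14578602-14606309) and Rb1 (chr14:73192858-73325951) had none. Each window was searched on both strands for the E2F site in the forms TTTCGCGC, TTTGGCGC, TTTCCCGC and TTTGCCGC, and for TTTGAA, the core of the CHR element that MuvB binds. Of these motifs TTTCGCGC was in 0.323% of all 32851 windows, TTTGGCGC in 0.514%, TTTCCCGC in 1.07%, TTTGCCGC in 0.441% and TTTGAA in 17.9%. An E2F form was present in a window of 4 of the 7 members, against 2.61% of the 27025 genes with a window. The windows with an E2F match are printed 5′ to 3′ on the strand of the gene, with that match in capitals and TTTGAA left unmarked. They are Rbl1 (chr2:157204485-157204784, minus strand), E2f7 (chr10:110745189-110745488, plus strand), E2f2 (chr4:136172024-136172323, plus strand) and E2f3 (chr13:29986014-29986313, minus strand).
Rbl1: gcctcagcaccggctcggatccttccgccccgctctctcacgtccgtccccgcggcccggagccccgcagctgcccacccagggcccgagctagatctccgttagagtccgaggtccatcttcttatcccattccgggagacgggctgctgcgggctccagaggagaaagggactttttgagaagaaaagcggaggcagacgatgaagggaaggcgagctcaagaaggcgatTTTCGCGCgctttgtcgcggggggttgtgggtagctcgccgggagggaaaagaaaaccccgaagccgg
E2f7: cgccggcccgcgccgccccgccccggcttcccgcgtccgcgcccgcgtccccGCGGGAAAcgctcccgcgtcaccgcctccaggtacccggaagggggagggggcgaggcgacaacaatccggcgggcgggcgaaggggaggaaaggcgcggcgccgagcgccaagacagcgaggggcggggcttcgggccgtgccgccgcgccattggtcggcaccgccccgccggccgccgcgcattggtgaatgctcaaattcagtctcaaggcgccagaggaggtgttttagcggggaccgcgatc
E2f2: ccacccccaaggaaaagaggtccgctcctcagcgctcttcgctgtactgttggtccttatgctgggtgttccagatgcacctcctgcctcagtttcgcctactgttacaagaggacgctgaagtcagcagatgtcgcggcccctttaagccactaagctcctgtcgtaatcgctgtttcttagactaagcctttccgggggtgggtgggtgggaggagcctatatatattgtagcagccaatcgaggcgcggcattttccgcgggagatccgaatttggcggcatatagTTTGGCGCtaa
E2f3: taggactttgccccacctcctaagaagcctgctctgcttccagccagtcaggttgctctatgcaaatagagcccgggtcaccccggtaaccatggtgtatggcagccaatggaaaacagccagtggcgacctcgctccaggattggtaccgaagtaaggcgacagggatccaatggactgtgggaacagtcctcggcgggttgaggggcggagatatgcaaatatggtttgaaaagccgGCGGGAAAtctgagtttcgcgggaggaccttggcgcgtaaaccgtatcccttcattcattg

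The match began 18 bases before the start site in Rbl1, 40 after it in E2f2, 198 before it in E2f7 and 11 before it in E2f3. It lay on the strand of the gene in Rbl1 and E2f2 and on the opposite strand in E2f7 and E2f3. The windows of E2f8 (chr7:48881547-48881846, minus strand) and Rbl2 (chr8:91069807-91070106, plus strand) are shown for contrast, since under OXP E2f8 fell like E2f7 and Rbl1 while Rbl2 rose. Neither held any of the 4 E2F forms, and both held TTTGAA once, as did the E2f3 window above and the second window of E2f2. TTTGAA was in a window of 4 of the 7 members, against 20.2% of all genes with a window. The E2f8 window starts from a site 477 bases inside the gene's annotated start.
E2f8: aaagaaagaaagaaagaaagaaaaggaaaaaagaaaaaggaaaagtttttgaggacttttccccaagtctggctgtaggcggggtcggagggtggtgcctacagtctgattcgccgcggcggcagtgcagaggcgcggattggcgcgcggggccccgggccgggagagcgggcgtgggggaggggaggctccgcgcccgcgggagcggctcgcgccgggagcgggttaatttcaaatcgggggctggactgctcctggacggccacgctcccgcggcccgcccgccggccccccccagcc
Rbl2: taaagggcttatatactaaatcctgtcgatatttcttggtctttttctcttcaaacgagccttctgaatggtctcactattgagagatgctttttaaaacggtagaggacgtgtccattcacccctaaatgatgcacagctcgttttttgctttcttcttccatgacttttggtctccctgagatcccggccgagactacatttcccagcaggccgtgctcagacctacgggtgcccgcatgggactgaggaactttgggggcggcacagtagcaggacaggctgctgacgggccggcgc

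The E2f1 window, which starts from a site 466 bases inside the annotated gene, and the second windows of E2f2 and E2f3 had no match to the 4 forms. A match is a description of these letters, and factor binding was not measured.

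The first principal component of the 12 arrays held 62.6% of the variance over all genes. OXP replicate 1 stood apart in RNA quality, with a Gapdh 3′ minus 5′ log2 difference of 3.85, where the remaining 11 arrays had values from -0.12 to 0.28. OXP replicate 2 differed from the STS+OXP arrays by 0.173 on average (root mean square over genes, log2 scale). This distance was 0.344 for OXP replicate 1 and 0.242 for OXP replicate 3. From the other OXP arrays, replicates 1, 2 and 3 differed by 0.321, 0.298 and 0.274. Replicates 2 and 3 were thus nearer to STS+OXP than to their own group. The STS+OXP arrays differed from one another by 0.156 to 0.172, so OXP replicate 2 lay about as near to them. The cause was not tested. The OXP results of the members and the counts of the gene lists are therefore also given without OXP replicate 1 and without OXP replicate 2. The arrays carried Vim, a mesenchymal marker, at a CTR mean log2 signal of 12.3. Only 3 of 8 epithelial markers (Epcam, Krt20 and Cdx2) exceeded 22 of the 23 nonspecific control probe sets in every group. Of the other lists, 4 of 5 mesenchymal, 1 of 3 lymphocyte, 0 of 5 macrophage and 0 of 4 endothelial markers did so, although Cd68 had a mean log2 signal of 2.94 in CTR and 4.41 in OXP, and the part of this in the results was not tested. The members themselves were dim to moderate. The brightest control probe set reached log2 signals of 4.72 to 5.88, and E2f1, E2f2, E2f3 and E2f4 had means under its level in all groups. No other member was above that level in every group. Also under it were Rb1 and Rbl2 in CTR, Rbl1 in STS+OXP, E2f7 and E2f8 in both OXP groups, and E2f5 in all groups but STS. The other 22 control probe sets reached at most 3.21 to 3.72, and of the members only E2f7 in STS+OXP was under that level. RNA from bulk cells cannot tell fewer cells of a type from less RNA per cell.

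The 10 members did not move as a block. Under STS alone, 4 of the 10 rose (E2f7, Rb1, Rbl1 and Rbl2) and 0 fell, where 16.5% of all genes were called, 9.75% higher and 6.74% lower. Under OXP alone, Rb1 and Rbl2 rose and E2f1, E2f2, E2f7, E2f8 and Rbl1 fell, which is 7 of 10 against 31.4% of all genes (17.5% higher and 13.9% lower). These 7 were called in the same directions without OXP replicate 1, when E2f4 and E2f5 were called lower too, and without OXP replicate 2. The log2 fold changes without replicate 1 and without replicate 2 were -0.62 and -0.57 for E2f1, -0.71 and -0.64 for E2f2, -0.18 and -0.25 for E2f3, -0.24 and -0.13 for E2f4, and -0.34 and -0.28 for E2f5. They were -1.80 and -1.66 for E2f7, -1.86 and -1.49 for E2f8, 1.83 and 1.92 for Rb1, -1.46 and -1.36 for Rbl1, and 1.49 and 1.77 for Rbl2. Under STS+OXP against CTR the same 7 genes were called in the same directions and E2f5 also fell, giving 8 of 10 against 30.6% (16.4% higher and 14.2% lower). Against STS, the STS+OXP group had 8 of 10 members called, 1 higher and 7 lower, where 22% of all genes were called (10.8% higher and 11.2% lower). Against OXP it had 0 of 10, where 0.0117% of all genes were called (0.00585% in each direction). The ranges of the compared groups did not overlap for 5 members in STS against CTR (37.4% of all genes), 8 in OXP against CTR (38.1%), 9 in STS+OXP against CTR (44.1%) and 8 in STS+OXP against STS (42%). Calls rest on limma, with a threshold of 0.05 on p-values adjusted by Benjamini-Hochberg across the 17097 genes. The comparisons with CTR share the CTR arrays, so they are not independent of one another.

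**Figure D1:**
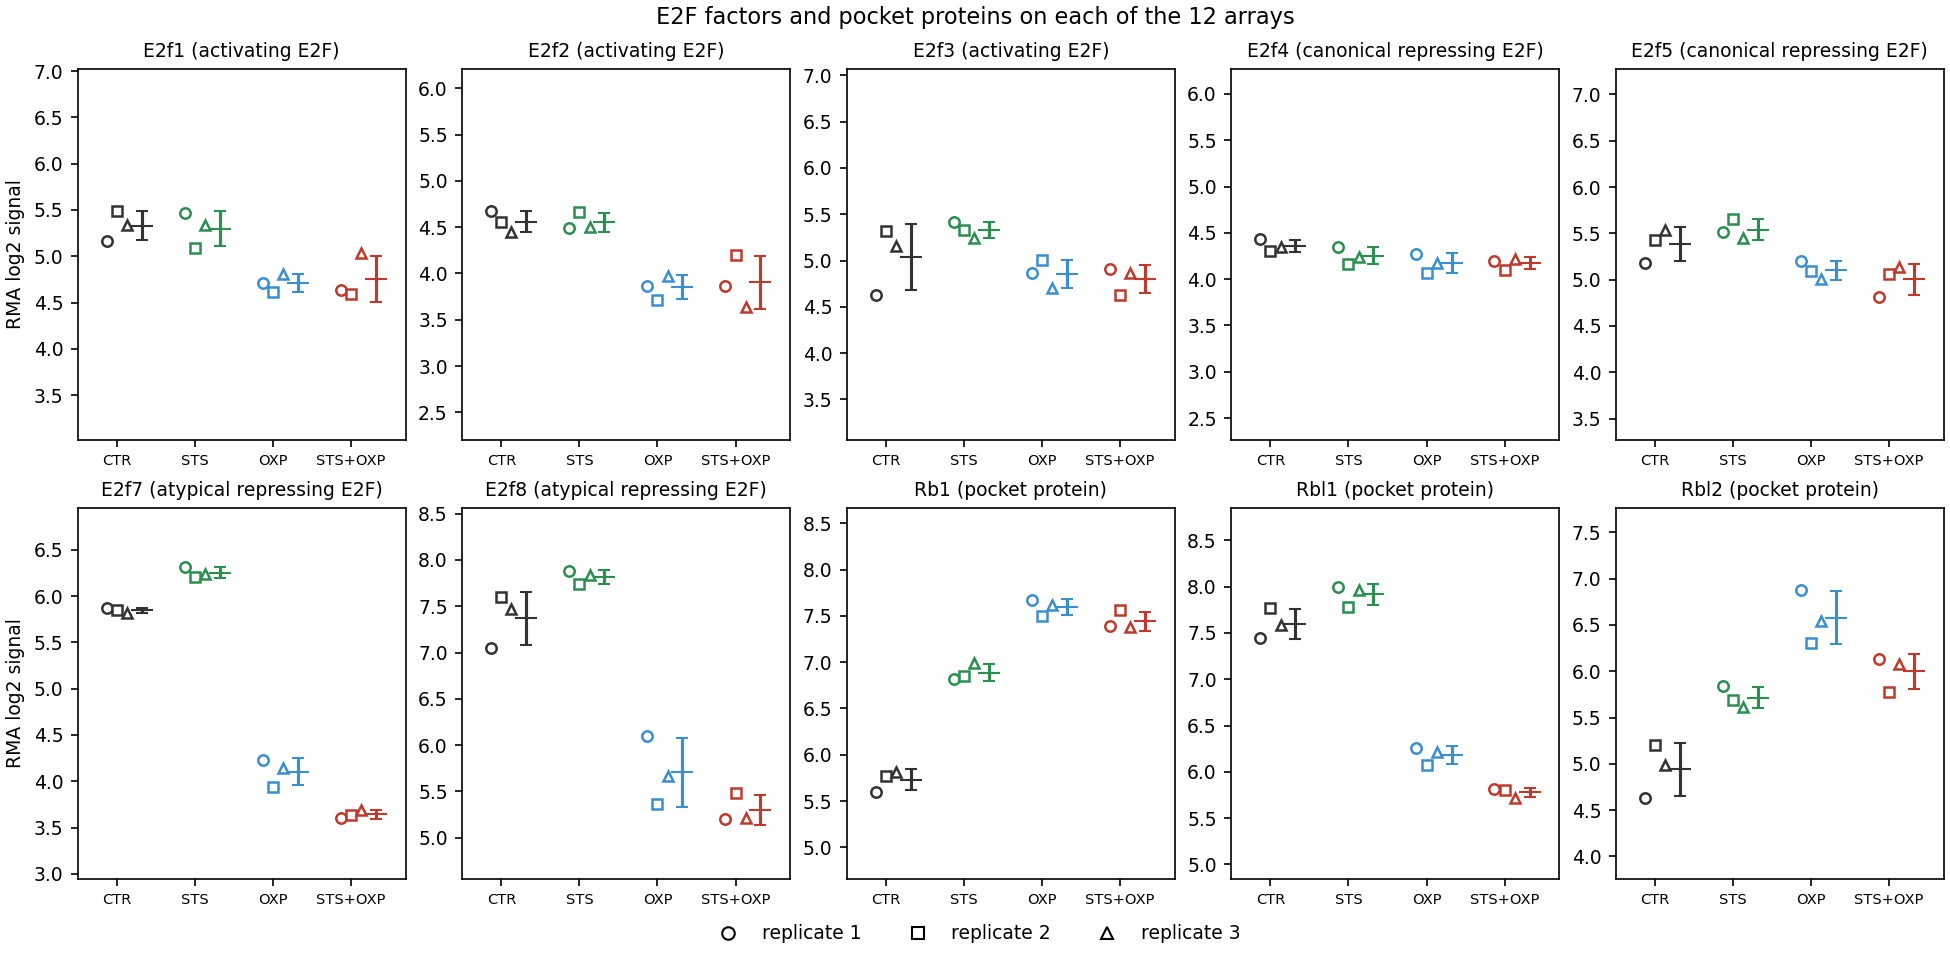
RMA log2 signal of each member on each of the 12 arrays, with circles, squares and triangles for replicates 1, 2 and 3 and the group mean ± SD (n = 3) beside them; every panel spans the same number of log2 units. E2f7, E2f8 and Rbl1 are high in CTR and STS and low in both OXP groups, whereas Rb1 and Rbl2 are lowest in CTR.

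Of the activating factors, E2f1 and E2f2 fell with OXP in either medium and neither passed the test under STS alone. E2f1 had log2 signals of 5.17, 5.48 and 5.33 on the CTR arrays, 5.46, 5.09 and 5.33 on the STS arrays, 4.71, 4.61 and 4.81 on the OXP arrays, and 4.63, 4.59 and 5.04 on the STS+OXP arrays. The 6 arrays with OXP lay below the 6 without it. The log2 fold change of E2f1 was -0.62 (SE 0.129, adjusted p = 0.00183) under OXP and -0.57 (adjusted p = 0.00322) under STS+OXP. Under STS it was -0.03, with a 95% interval from -0.31 to 0.25. E2f2, an activating factor with known roles in blood cells, had log2 signals of 4.67, 4.55 and 4.45 on the CTR arrays, 4.49, 4.67 and 4.50 with STS, 3.86, 3.71 and 3.98 with OXP, and 3.86, 4.20 and 3.64 with STS+OXP. Its groups with and without OXP did not overlap either. E2f2 fell by 0.71 on the log2 scale (SE 0.125, adjusted p = 0.000506) under OXP and by 0.66 (adjusted p = 0.000925) under STS+OXP, and its log2 fold change under STS was -0.01 (95% interval -0.28 to 0.26).

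E2f3, which encodes a long and a short form of the factor, was not called against CTR in any group. Its log2 signals were 4.63, 5.32 and 5.16 in CTR, 5.42, 5.33 and 5.24 with STS, 4.86, 5.01 and 4.71 with OXP, and 4.91, 4.63 and 4.87 with STS+OXP. CTR replicate 1 was as low as the lowest array with OXP. The log2 fold change was 0.30 under STS (adjusted p = 0.221), -0.18 under OXP (adjusted p = 0.44) and -0.23 under STS+OXP (adjusted p = 0.293). Without CTR replicate 1 the OXP value was -0.38 (adjusted p = 0.024) and the STS+OXP value -0.43 (adjusted p = 0.0108). Against STS, E2f3 fell by 0.53 on the log2 scale in STS+OXP (adjusted p = 0.0188), a call lost without STS replicate 1, STS replicate 2 or STS+OXP replicate 2 (adjusted p up to 0.0885).

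Neither canonical repressing factor was called under STS or OXP alone. E2f4, the most widely expressed E2F and the usual partner of p130, had group means between 4.17 and 4.36 on the log2 scale. Its log2 fold change was -0.11 under STS (95% interval -0.28 to 0.06, adjusted p = 0.418), -0.19 under OXP (95% interval -0.36 to -0.02, adjusted p = 0.0892) and -0.19 under STS+OXP (95% interval -0.36 to -0.02, adjusted p = 0.0864). The ranges of CTR and of either OXP group did not overlap, but the differences did not pass the adjusted threshold. Without OXP replicate 1 the OXP value was -0.24 (adjusted p = 0.0397).

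E2f5, which pairs with p130 and p107, had log2 signals of 5.18, 5.43 and 5.54 in CTR, 5.52, 5.66 and 5.45 with STS, 5.21, 5.09 and 5.00 with OXP, and 4.81, 5.07 and 5.13 with STS+OXP. The STS arrays lay above both OXP groups, and CTR replicate 1 fell within the OXP range. Expression of E2f5 fell by 0.38 on the log2 scale in STS+OXP against CTR (SE 0.109, adjusted p = 0.0157) and by 0.54 against STS (adjusted p = 0.00242). The OXP log2 fold change of E2f5 was -0.28 (adjusted p = 0.0663), and without OXP replicate 1 it was -0.34 (adjusted p = 0.0414). The STS+OXP call against CTR was lost without CTR replicate 2, CTR replicate 3 or STS+OXP replicate 1 (adjusted p up to 0.0845).

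The atypical repressing factors E2f7 and E2f8 had the largest falls among the E2F members. E2f7 had log2 signals of 5.87, 5.85 and 5.82 in CTR, 6.32, 6.21 and 6.24 with STS, 4.23, 3.94 and 4.14 with OXP, and 3.60, 3.63 and 3.69 with STS+OXP. No group overlapped another, and the order was STS, CTR, OXP and STS+OXP. E2f7 rose by 0.41 on the log2 scale under STS (SE 0.0779, adjusted p = 0.00253) and fell by 1.74 under OXP (adjusted p = 1.75e-09). In STS+OXP its mean of 3.64 was under the level of 3.72 reached by the 22 control probe sets, so that E2f7 was at least 4.37-fold lower than in CTR and at least 5.79-fold lower than in STS. The measured log2 fold changes were -2.20 (adjusted p = 2.68e-10) and -2.61 (adjusted p = 8.15e-11).

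E2f8, which dimerises with E2f7, had log2 signals of 7.05, 7.60 and 7.47 in CTR, 7.88, 7.73 and 7.83 with STS, 6.10, 5.36 and 5.66 with OXP, and 5.20, 5.49 and 5.21 with STS+OXP. The STS arrays were above all CTR arrays, and OXP and STS+OXP overlapped. Under STS the log2 fold change of E2f8 was 0.44 (SE 0.17, adjusted p = 0.102) and was not called, although it was called without OXP replicate 1 (adjusted p = 0.0267) or OXP replicate 2 (adjusted p = 0.0465). OXP lowered E2f8, with log2 fold changes of -1.66 alone (adjusted p = 3.82e-06), -1.86 when OXP replicate 1 was left out, and -2.07 in STS+OXP (adjusted p = 4.93e-07). Against STS, STS+OXP lowered E2f8 5.72-fold (adjusted p = 1.42e-07).

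Within arrays, the E2f7 level minus the E2f1 level differed from its CTR mean by -1.12 ± 0.109 (SD, n = 3) in OXP on the log2 scale. It differed by -1.63 ± 0.205 in STS+OXP, where E2f7 was under the level of the 22 controls, and by 0.44 ± 0.138 in STS. E2f1 was under the brightest control probe set in all groups, so background limits the size of these differences. For E2f8 minus E2f1 the same differences were -1.04 ± 0.344, -1.50 ± 0.361 and 0.48 ± 0.115. The median log2 fold change under OXP was -0.62 for the 3 activating factors, -0.24 for the 2 canonical repressing factors and -1.70 for the 2 atypical ones, beside -0.01 for all genes, although E2f3 (-0.18) lay nearer to 0 than either canonical repressing factor. Under STS these medians were -0.01, 0.02 and 0.43, beside -0.03 for all genes.

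**Figure D2:**
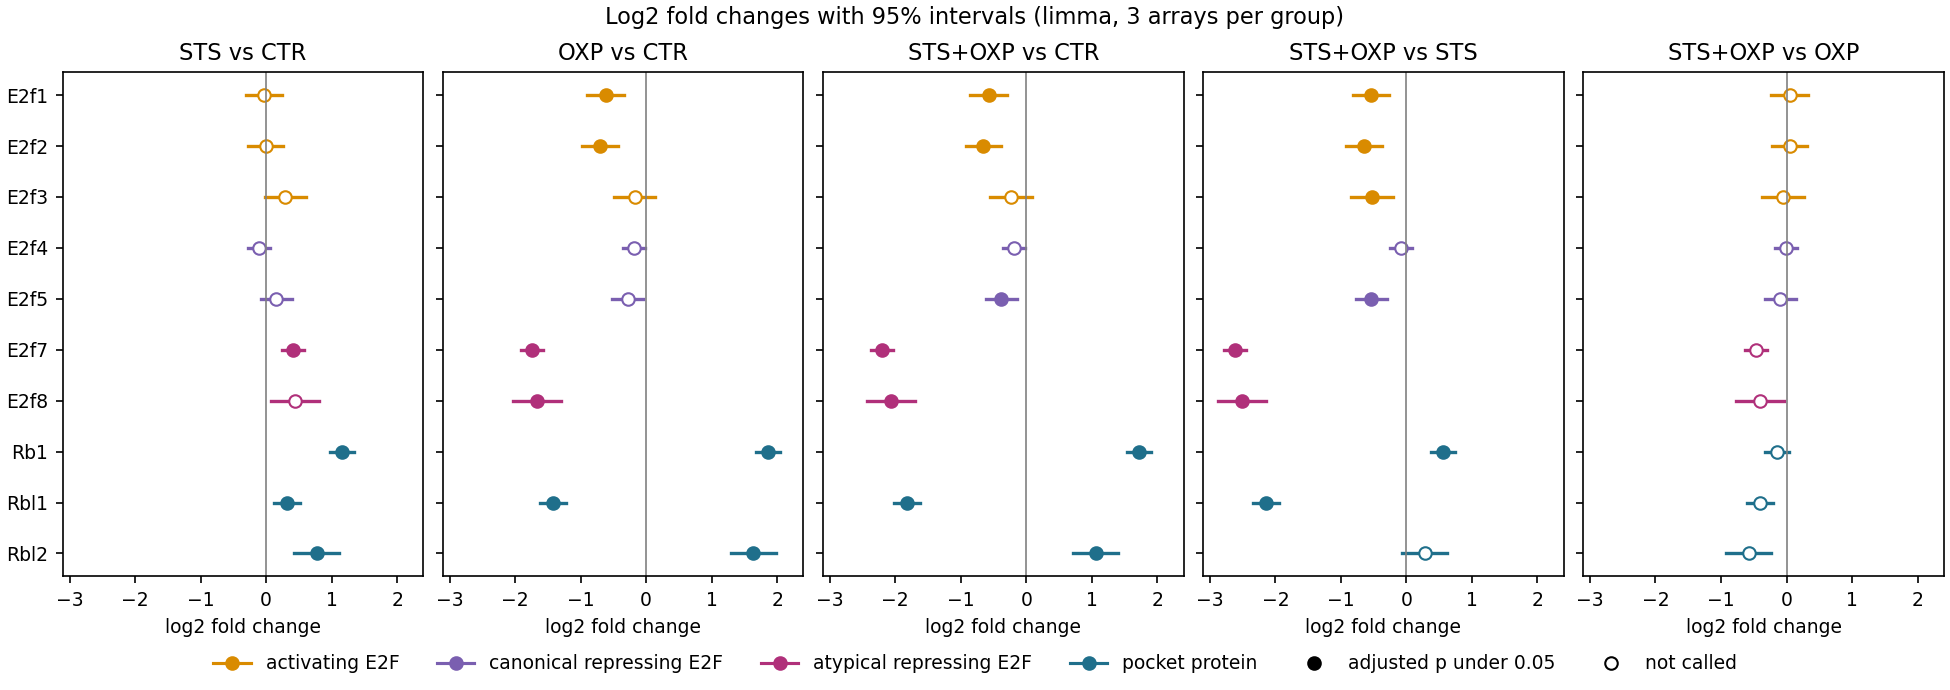
Log2 fold change of each member in the 5 comparisons between groups, with 95% intervals from limma (3 arrays per group); filled points have an adjusted p under 0.05. Rb1 and Rbl2 lie right of 0 in all comparisons with CTR, Rbl1 lies right of 0 under STS (0.32) and left of it under OXP (-1.42), and no point is filled in STS+OXP against OXP.

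The pocket proteins moved in opposite directions. Rb1 and Rbl2 rose in every treated group against CTR, and Rbl1 rose under STS but fell under OXP in either medium. Rb1 had log2 signals of 5.60, 5.77 and 5.81 in CTR, 6.82, 6.85 and 6.99 with STS, 7.67, 7.50 and 7.62 with OXP, and 7.39, 7.56 and 7.38 with STS+OXP. CTR was lowest, STS lay between, and the OXP and STS+OXP arrays overlapped at the top. Rb1 was 2.23-fold higher under STS (log2 fold change 1.16, SE 0.0854, adjusted p = 7.45e-07), 3.65-fold higher under OXP (adjusted p = 2.04e-09) and 3.28-fold higher under STS+OXP (adjusted p = 4.34e-09). Against STS, Rb1 rose by 0.56 on the log2 scale in STS+OXP (adjusted p = 0.000274).

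Rbl2, the p130 gene, had log2 signals of 4.64, 5.20 and 4.99 in CTR, 5.85, 5.69 and 5.62 with STS, 6.88, 6.31 and 6.55 with OXP, and 6.14, 5.78 and 6.08 with STS+OXP. Every treated array exceeded every CTR array, OXP was highest, and STS+OXP overlapped STS. Rbl2 was 1.71-fold higher under STS (log2 fold change 0.77, SE 0.159, adjusted p = 0.00403), 3.11-fold higher under OXP (adjusted p = 2.31e-06) and 2.08-fold higher under STS+OXP (adjusted p = 0.000129). Between STS+OXP and STS its log2 fold change was 0.28 (95% interval -0.06 to 0.62, adjusted p = 0.257).

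Rbl1, the p107 gene, had log2 signals of 7.45, 7.76 and 7.58 in CTR, 8.001, 7.78 and 7.96 with STS, 6.26, 6.07 and 6.21 with OXP, and 5.81, 5.80 and 5.72 with STS+OXP. The 4 groups did not overlap, and their order of STS, CTR, OXP and STS+OXP was that of E2f7. Rbl1 was 2.67-fold lower under OXP (log2 fold change -1.42, SE 0.0921, adjusted p = 5.24e-08), 3.53-fold lower under STS+OXP (adjusted p = 4.99e-09) and 4.40-fold lower in STS+OXP than in STS (adjusted p = 2.54e-09). The rise under STS was small, at 0.32 on the log2 scale (adjusted p = 0.0307). It was not called without CTR replicate 1, CTR replicate 3, STS replicate 1 or STS replicate 3 (adjusted p up to 0.141). Within arrays, the Rb1 level minus the Rbl1 level exceeded its CTR mean by 0.84 ± 0.135 (SD, n = 3) with STS, by 3.28 ± 0.0123 with OXP and by 3.53 ± 0.0898 with both, as log2 differences. For Rbl2 minus Rbl1 it exceeded the CTR mean by 0.46 ± 0.13, 3.05 ± 0.199 and 2.88 ± 0.214.

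To ask whether STS acted alike with and without OXP, the interaction was tested, which is the STS effect in OXP-treated cells minus the STS effect in untreated cells. It was negative and called for 5 of the 10 members, E2f7, E2f8, Rb1, Rbl1 and Rbl2, where 8.29% of all genes were called (2.53% positive and 5.76% negative). It was called for 0 of the 3 activating and 0 of the 2 canonical repressing factors. The value was -1.31 for Rb1 (SE 0.121, adjusted p = 1.63e-05), -1.35 for Rbl2 (SE 0.224, adjusted p = 0.00198) and -0.87 for E2f7 (SE 0.11, adjusted p = 0.000243), all on the log2 scale. With the E2f7 mean in STS+OXP set to the control level it was -0.79. It was -0.72 for Rbl1 (SE 0.13, adjusted p = 0.00361) and -0.85 for E2f8 (SE 0.241, adjusted p = 0.0459). On second, dimmer probe sets the interaction was -0.13 for Rbl1 (adjusted p = 0.792) and -0.53 for Rbl2 (adjusted p = 0.174). There the Rbl1 means of both OXP groups were under the control level, as were the Rbl2 means of all groups but OXP. The second probe sets of Rb1 (-0.11) and E2f8 (0.025) were under that level in every group and were not called. The E2f8 call was lost in 10 of the 12 settings that left out 1 array, namely all except CTR replicate 2 and OXP replicate 2 (adjusted p up to 0.113). For E2f3 the interaction was -0.35 (95% interval -0.80 to 0.10, adjusted p = 0.367), and for E2f1 it was 0.08 (95% interval -0.31 to 0.47).

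**Figure D3:**
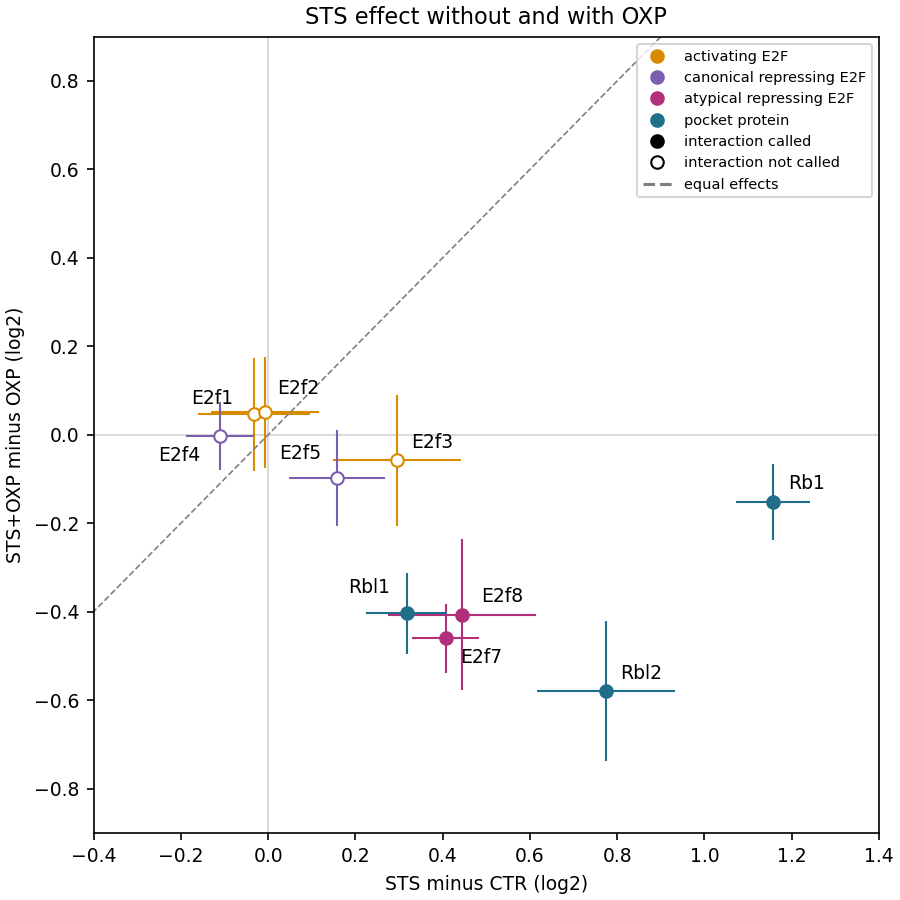
STS effect of each member in cells with OXP (vertical, STS+OXP minus OXP) against that in cells without OXP (horizontal, STS minus CTR), in log2 units with SE bars and a dashed line of equal effects. Rb1 (1.16 and -0.15) and Rbl2 (0.77 and -0.58) lie farthest below the line, and E2f1, E2f2 and E2f4 lie near it.

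The comparison of STS+OXP with OXP gave 0 calls by limma, with 4 members at an unadjusted p under 0.05. The log2 fold changes of those were -0.46 for E2f7 (adjusted p = 0.146), -0.41 for E2f8 (adjusted p = 0.354), -0.40 for Rbl1 (adjusted p = 0.257) and -0.58 for Rbl2 (adjusted p = 0.257). The E2f7 mean in STS+OXP was under the control level here too, and E2f7 was at least 1.31-fold lower than in OXP. The ranges of the groups did not overlap for 3 members (E2f7, Rbl1 and Rbl2), where 12.4% of all genes had ranges apart. Rb1 had a log2 fold change of -0.15 (95% interval -0.34 to 0.03). The result depended on OXP replicate 2, the array nearest to STS+OXP over all genes. Without it, limma called 4 members, E2f7 (-0.54, adjusted p = 0.000651), E2f8 (-0.58, adjusted p = 0.0476), Rbl1 (-0.46, adjusted p = 0.0143) and Rbl2 (-0.71, adjusted p = 0.0171). Without OXP replicate 1 it called 0, and without both it called E2f7 alone (adjusted p = 0.00695), for which the single OXP array left was taken to vary as much as arrays of other groups. The unpaired test of the study's methods gave 2 members at an unadjusted p under 0.05, E2f7 and Rbl1, and 0 after Benjamini-Hochberg adjustment.

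The members had 18 probe sets in all. E2f4 and E2f7 had 1 each, and the other 8 members had a second, dimmer one. For E2f1 the second probe set gave nearly the same change under OXP, with a log2 fold change of -0.70 against -0.62. That of Rbl1 had a mean log2 signal of 3.41 in OXP, under the level of the 22 controls, so that it was at least 2.98-fold lower than in CTR (measured log2 fold change -1.88, against -1.42 on the first), and it gave 0.06 under STS. E2f5 had a log2 fold change of -0.51 under OXP on its second probe set (adjusted p = 0.0452) and of -0.81 under STS+OXP (adjusted p = 0.0029), so both values were larger than on the first. The second probe set of Rbl2, with a mean log2 signal of 3.41, was above the level of the 22 controls in OXP alone (3.82), so that OXP was at least 1.07-fold higher than CTR (measured log2 fold change 0.72, adjusted p = 0.00182). Those of E2f3, E2f8 and Rb1, with mean log2 signals of 3.44, 2.84 and 2.51, were under the control level in all 4 groups and allow no fold. That of E2f2 was above the control level in STS alone, where its mean log2 signal was 3.72. Its measured log2 fold change under STS was 0.44 (adjusted p = 0.0316), against -0.01 on the first. With its CTR mean set to the control level this was 0.0006, so no rise above background was shown. The measured values were -0.51 under OXP (adjusted p = 0.00649) and -0.57 under STS+OXP (adjusted p = 0.00299). Both of these compare means that are under the control level.

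**Figure D4:**
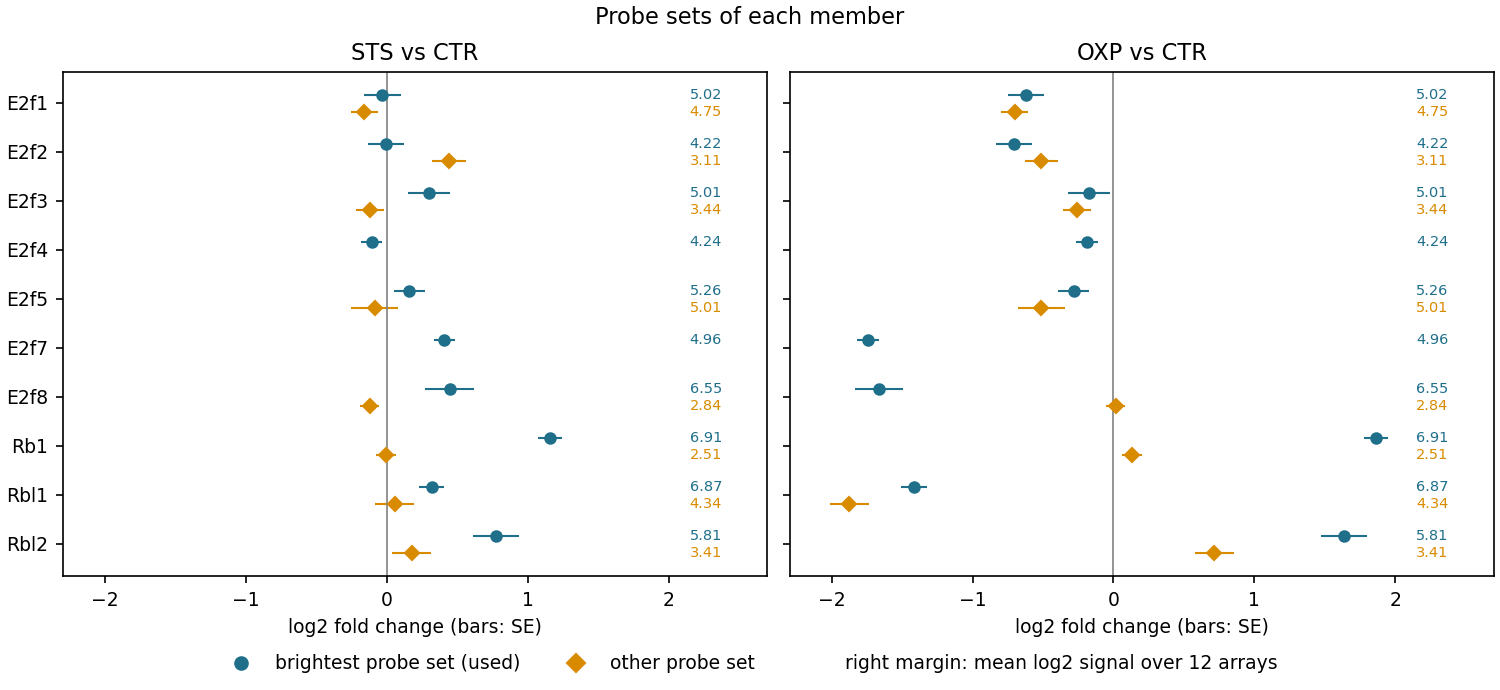
Log2 fold change ± SE of each probe set of the members under STS (left) and OXP (right), circles for the brightest and diamonds for the other probe set; the figures in the right margin are mean log2 signals over 12 arrays. For E2f8 and Rb1 the diamonds, at mean signals of 2.84 and 2.51, stay near 0 while the circles move; these means are under the control level in all groups.

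The partners and upstream regulators of the members were examined next. Of 10 measured E2F partners and MuvB or DREAM subunits, 5 fell under OXP, 0 rose, and the median log2 fold change was -0.63, where 13.9% of all genes fell and 17.5% rose. Those named are Mybl2 and Foxm1 (-1.54), which take over MuvB in S and G2, and the MuvB subunits Lin54 (-1.22) and Lin9 (-0.80). The OXP mean of Mybl2, 3.46 on the log2 scale, was under the level of the 22 controls, so that Mybl2 was at least 2.99-fold lower than in CTR (measured log2 fold change -1.83). Mybl1 was under that level in every group. Under STS, Lin9 was the 1 gene of the 10 that rose (0.45, adjusted p = 0.0459), where 9.75% of all genes rose. Of 8 genes of cyclin D and cyclin E kinases, 6 fell under OXP, with log2 fold changes of -1.59 for Ccne2, -1.13 for Ccne1 and -0.91 for Cdk2. Ccnd1 and Ccnd2 rose, Ccnd2 by 0.75 on the log2 scale. Under STS Ccnd3 rose by 0.35 on the log2 scale.

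Among 7 CDK inhibitors, of which Cdkn1c, Cdkn2a and Cdkn2b were under the control level in every group, Cdkn1a (p21), which keeps the pocket proteins unphosphorylated by inhibiting CDK2, rose by 2.95 on the log2 scale under OXP (adjusted p = 8.83e-12). Cdkn1a did not pass the test under STS (log2 fold change -0.04). Cdkn2c (p18) rose by 0.74 under STS and by 0.63 under OXP on the log2 scale, Cdkn1b (p27) rose by 0.65 under STS, and Cdkn2d (p19) fell by 1.09 under OXP. Of 7 modifiers of E2F and pocket proteins, 2 rose and 4 fell under OXP, where 17.5% of all genes rose and 13.9% fell. Mdm2, a p53 target whose product also binds the retinoblastoma protein, rose by 3.42 on the log2 scale. Id2, whose product binds pocket proteins, rose by 1.56 under OXP but had a log2 fold change of 0.28 in STS+OXP (adjusted p = 0.611), and its interaction was -1.87 (adjusted p = 0.0205). Ccnf and Fzr1, which direct protein degradation, fell by 0.77 and 0.70, and under STS Ccnf rose by 0.39 on the log2 scale. Of 9 measured chromatin co-repressors that pocket proteins recruit, 2 rose and 3 fell under OXP, beside the same 17.5% and 13.9% of all genes. The log2 fold changes were -1.19 for Dnmt1, 0.82 for Arid4b, 0.70 for Kdm5a and -0.55 for Rbbp7. Under STS 3 of the 9 rose, among them Kdm5a (0.54) and Sin3a (0.35), where 9.75% of all genes rose. With OXP replicate 1 and then OXP replicate 2 left out, the genes that fell under OXP numbered 5 and 6 of the 10 partners, 5 and 5 of the 8 cyclin and kinase genes, 1 and 1 of the 7 inhibitors, 3 and 4 of the 7 modifiers, and 3 and 3 of the 9 co-repressors. Those that rose numbered 0 and 0, 2 and 2, 2 and 2, 2 and 2, and 2 and 4 in the same order. Of all genes, 32.1% and 30.9% were called in either direction in these settings.

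Most targets of the network fell in both OXP groups. Of all genes, 13.9% fell under OXP and 14.2% under STS+OXP. All 25 measured G1/S targets fell under OXP, with a median log2 fold change of -1.72, and 24 of 25 fell under STS+OXP, with a median of -2.01 and Orc1 as the exception (-0.26, adjusted p = 0.176). The largest falls under OXP were in Tk1 (thymidine kinase, -2.94), Cdc6 (a replication licensing factor, -2.91), Mcm5 (a helicase subunit, -2.48) and Pola1 (DNA polymerase alpha, -2.44). Without OXP replicate 1 all 25 fell under OXP (median -1.80), and without OXP replicate 2 the count was 24 (median -1.59). The Orc1 mean in OXP was under the control level, which makes Orc1 at least 1.26-fold lower there than in CTR. Under STS 4 of the 25 rose, where 9.75% of all genes rose, including Pole (0.41) and Mcm10 (0.40), and 0 fell. The interaction was negative and called for 10 of the 25, where 5.76% of all genes had a called negative value, and among the genes named here it was called for Pola1 (-0.71), Pole (-0.78) and Mcm10 (-0.43). The count was 10 without OXP replicate 1 and 14 without OXP replicate 2. Pola1 in STS+OXP was under the control level, and with its mean set to that level its interaction was -0.68. E2F sites in the 4 forms searched were in windows of 11 of 24 G1/S targets, against 2.61% of all genes with a window.

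Of the 25 measured G2/M targets of DREAM, 24 fell under OXP with a median log2 fold change of -2.23, where 13.9% of all genes fell. Under STS+OXP 24 fell with a median of -1.95, where 14.2% of all genes fell. Kif23 was the exception in both, and its means were under the control level in all groups. Without OXP replicate 1 and without OXP replicate 2 the OXP count was again 24, with medians of -2.28 in each case. Aurkb (-2.97), Ccna2 (-2.94), Kif11 (-2.66) and Cenpf (-2.64) fell most under OXP. Under STS 1 of the 25 rose (Tacc3, 0.41), where 9.75% of all genes rose. The interaction was called for Tacc3 alone, where 8.29% of all genes were called. The G2/M list thus had 1 called interaction where the G1/S list had 10, and this difference between the lists was not tested. Without OXP replicate 1 the count was again 1, but without OXP replicate 2 it was 8 of 25, with 7 positive and 1 negative, where 10.3% of all genes were called. An E2F form was in windows of 1 of 21 G2/M targets, against 2.61% of all genes with a window. TTTGAA was in windows of 14 of the 21, against 20.2% of all genes with a window.

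**Figure D5:**
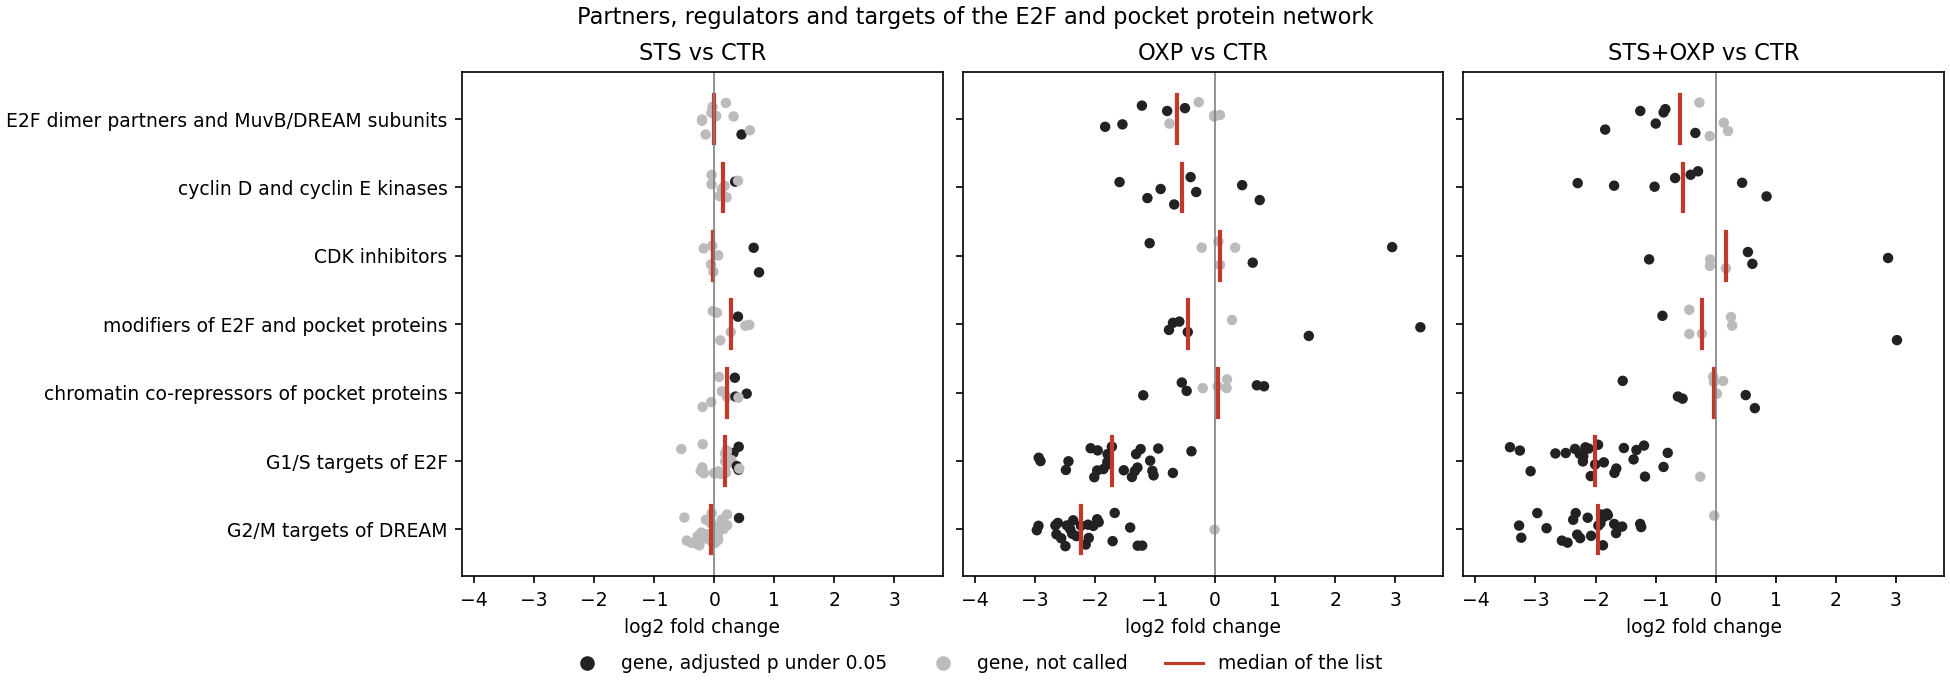
Log2 fold change of each measured gene of 7 lists of E2F partners, regulators and targets in the 3 comparisons with CTR; black points have an adjusted p under 0.05 and red bars are list medians. Under OXP the medians of the G1/S and G2/M targets are -1.72 and -2.23, whereas under STS all 7 medians lie between -0.06 and 0.27.

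The genes whose levels followed each member most closely over the 12 arrays were taken from 6174 other named genes. Each had a mean above the brightest control probe set in at least 1 group, so dimmer genes were not searched. These correlations (Pearson's r over 12 arrays in 4 groups) are descriptions, since the arrays share the treatment groups. E2f7 was followed by Pcna (r = 0.999), Mcm4 (r = 0.998) and Mcm6 (r = 0.995), and Rbl1 by Topbp1 (r = 0.997), Mcm4 and Pcna, of which Pcna and the Mcm genes are in the G1/S list. E2f8 was followed by Topbp1 (r = 0.994), Brca1 and Spc25. Rb1 was followed by Il15 (r = 0.993), Lamp1 and Gnal, and Rbl2 by Dixdc1 (r = 0.986), Mbd1 and Trmt1l. The activating factors had lower values, with Rnf8 nearest to E2f1 (r = 0.948), Gps1 nearest to E2f2 (r = 0.964) and Dnajc11 nearest to E2f3 (r = 0.947). For E2f4 the nearest gene was Rpl36a (r = 0.897) and for E2f5 Map3k12 (r = 0.927). After the group means were subtracted, r was 0.881 for E2f7 with Pcna and 0.452 for Rb1 with Il15. Over all members and the genes nearest to them it ranged from 0.382 (Rbl1 with Pcna) to 0.923 (E2f8 with Brca1).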

How the data were processed

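RNA from CT26 cells was measured on 12 Affymetrix 3′ IVT mouse arrays, 3 for each of CTR, STS, OXP and STS+OXP. The authors deposited RMA values on the log2 scale, for which the submitters' processing notes name R 3.02. RMA removes background, gives all arrays the same distribution and combines the probes of a set, so a shift of all genes together would be removed. No further normalization or filter was applied. Of 45141 probe sets, 28898 had 1 symbol, 551 several, 15588 none and 104 were controls. Symbols were updated by gene ID through RefSeq (28689 matched). Each of the 17097 genes took its brightest probe set. Arrays have no read depth, and their number limits the precision.

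Means of the 4 groups were estimated in 1 linear model of the 12 arrays (limma 3.58.1, R 4.3.3, with 8 residual and 5.05 prior degrees of freedom) and contrasted by two-sided tests. The p-values of the 17097 genes were adjusted by Benjamini-Hochberg, and genes under 0.05 were called. Named were all members, and of each list up to 4 genes called under OXP and up to 2 called under STS with the largest change, and the 3 genes best correlated with each member. Other genes were chosen after their values were seen. The control level leaves out the brightest of 23 nonspecific controls. This choice, the bounds set at that level and the list counts without OXP replicate 1 or 2 were made after the data were seen. The members and lists were chosen with earlier results of these data known. Alternatives were other scalings, probe set choices, filters, weights, a replicate block, single arrays left out, a fold of at least 2 and the unpaired, unequal-variance test named in the study's methods. The fit was tested on simulated data. Replicate numbers did not pair the arrays.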

Additional observations from a re-analysis of the deposited data

Results flagged for a closer look

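The STS effect with OXP minus that without OXP differed from 0 in limma's interaction test for 5 members. It was -0.87 for E2f7, -0.85 for E2f8, -1.31 for Rb1, -0.72 for Rbl1 and -1.35 for Rbl2, on the log2 scale. No second probe set of these members gave a called interaction, with -0.13 for Rbl1, -0.53 for Rbl2, -0.11 for Rb1 and 0.025 for E2f8. Those of Rb1 and E2f8 were under the control level in all groups, and E2f7 had no second probe set. For E2f7 and Rbl1 the STS effect was a called rise without OXP (0.41 and 0.32) and an uncalled -0.46 and -0.40 with it. For Rb1 it was 1.16 without OXP and -0.15 with it, and for Rbl2 0.77 and -0.58. For E2f8 neither effect passed the test alone (0.44 and -0.41). Without OXP replicate 1, whose Gapdh 3′ minus 5′ difference was 3.85 on the log2 scale, the interaction was -0.80 for E2f7, -1.27 for Rb1, -0.68 for Rbl1 and -1.20 for Rbl2, all still called, and -0.66 for E2f8 (adjusted p = 0.0517).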

How the results depend on the processing

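Of 1352 values of single members under the alternatives, 1280 kept the call or its absence (42 of them, called in neither, changed sign), 37 lost the call, 30 gained it and 5 reversed. The reversals were on second probe sets, with log2 fold changes of 0.44 for E2f2 and -0.0085 for Rb1 under STS. For E2f8 they were 0.017 under OXP, 0.042 in STS+OXP against STS and 0.025 for the interaction. These probe sets were under the control level in all groups for Rb1 and E2f8, and in all but STS for E2f2, so the reversals are limited by background. With 1 array left out, the members called numbered 3 to 5 for STS, 7 to 9 for OXP, 7 to 9 for STS+OXP against CTR, 7 to 8 against STS, 0 to 4 against OXP and 4 to 5 for the interaction. Under OXP, E2f1 (1.54-fold lower) and E2f2 (1.63-fold lower) were called but changed less than 2-fold. A required fold of at least 2 left 1 for STS (Rb1), 5 for STS+OXP against CTR, 3 against STS and 2 for the interaction (Rb1 and Rbl2). The unpaired test of the study's methods with Benjamini-Hochberg adjustment called 1, 5 and 4 in the first 3 of these. For STS+OXP against OXP, median centring called 1 (E2f7), leaving out OXP replicates 1 and 2 together called 1, and that unpaired test without adjustment gave 2. The mean of all probe sets left 3 interactions (E2f7, Rb1 and Rbl2). Replicate numbers did not pair the arrays, since 1 of 18 same-number pairs correlated above 0.1 (-0.20 to 0.10) and 2 of 12 arrays correlated best with their own number. A fit with the number as a replicate block called 3, 8, 9, 8, 0 and 4 members in the order of comparisons above. The cause of these shifts was not tested. Members near the control signal, above all E2f7 in STS+OXP, are limited by background.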
